A study of Mus musculus with 15 samples.

Results

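The clustered protocadherins are cell-surface adhesion proteins of the nervous system whose genes lie in 3 tandem arrays, the alpha, beta and gamma clusters. Every gene of the 15 count tables whose symbol starts with Pcdha, Pcdhb or Pcdhg was taken as a member, which gave 58 of 26263 named genes. There were 14 alpha, 22 beta and 22 gamma genes. All of them were placed by RefSeq gene identifier on chromosome 18 of GRCm38, the mouse assembly that build mm10 names. In that order the clusters spanned bases 36930285 to 37188897, 37264998 to 37521419 and 37661775 to 37841873, and position below counts genes along this direction. The alpha cluster held 12 variable genes followed by the C-type genes Pcdhac1 and Pcdhac2, and the gamma cluster held 12 genes of subfamily A and 7 of subfamily B, interleaved, followed by the C-type genes Pcdhgc3, Pcdhgc4 and Pcdhgc5.

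RNA was measured in neural stem and progenitor cells from the dorsal telencephalon of mouse embryos at E12.5, which were grown as floating neurospheres with EGF and FGF. KO_B6 denotes 4 Kat6b knockout libraries on the C57Bl/6 background and WT_B6 the 3 wild-type libraries they were set against, whose label numbers are 1, 2 and 4. Tg_FvB denotes 6 libraries that carry a Kat6b transgene, Tg(Kat6b), on a background mixed from FVB and BALB/c, and WT_FvB the 2 wild-type libraries of the same mix. Kat6b encodes a histone acetyltransferase. Neither the deleted part of Kat6b nor the promoter of the transgene is given in the labels. Although titled as knockouts, the Tg_FvB samples are transgenic by their genotype field and by the design text, which were followed. In 2 of their files, those of replicates 5 and 6, the header of the counts names an FvB wild type instead. WT_B6 replicate 1 carries the same litter and embryo numbers as WT_FvB replicate 2.

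As background, each variable gene of the alpha and gamma clusters has its own promoter and its own large first exon, which encodes the extracellular cadherin repeats, the transmembrane segment and part of the cytoplasmic tail. That exon is spliced to 3 constant exons shared by the whole cluster, whereas each beta gene is a single exon with no constant part. In neurons a few variable promoters are chosen per cell and chromosome copy, under the control of CTCF, cohesin-driven looping, antisense transcription and promoter DNA methylation, while C-type genes are less subject to this choice. The proteins recognise identical protocadherins on the facing membrane, which serves self-avoidance of dendrites and axons, neuronal survival and the spacing of projections.

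The libraries held 12336303 to 62819028 counts over named genes, and the 58 members took 0.0939% to 0.114% of them. Kat6b itself had 61.0, 64.1, 66.1 and 62.3 CPM in KO_B6, against 85.1, 84.1 and 83.5 in WT_B6 (log2 fold change -0.41 ± 0.17, adjusted p = 0.0571), so that its gene-level value was lower in all KO_B6 libraries but missed the threshold, which it passed in a fit of these 2 groups alone. In the transgenic comparison Kat6b had 268.2, 265.5, 266.1, 228.7, 139.6 and 288.9 CPM in Tg_FvB, against 54.4 and 51.9 CPM in WT_FvB (log2 fold change 2.19 ± 0.21, adjusted p = 2.38e-04), and Tg_FvB replicate 5 was the lowest. CPM values are scaled by TMM factors, which adjust for library size and composition. Libraries within WT_B6, within WT_FvB, KO_B6 replicates 2 and 3, and Tg_FvB replicates 1 to 3 were far more alike than other replicates. Their biological coefficients of variation per pair were 0.0172 to 0.0505, against 0.115 to 0.275 for the remaining pairs within groups. They still differed by more than sampling noise, with chi-square per degree of freedom of 2.04 to 10.8, and were kept as separate libraries. Of the marker lists, microglia summed to at most 0.456 CPM, blood to 1.06, endothelium to 2.37 and mesenchyme to 4.67 in any library, and Hbb-bs had no count in any. The 10 neural stem and progenitor markers summed to 7046 to 10139 CPM. Fewer cells of a type and less RNA per cell cannot be told apart in these bulk cultures.

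The cells transcribed the 3 clusters very unequally, and 1 C-type gene made up most of the family's output. Pcdhgc3, which in mouse cortical neurons promotes dendritic branching, had 688.0, 689.1, 661.7 and 670.3 CPM in KO_B6, against 718.0, 714.6 and 723.9 in WT_B6. In the mixed background it had 533.5 CPM at the lowest, 583.7 at the median and 643.9 at the highest of the 6 Tg_FvB libraries, against 576.9 and 554.4 in WT_FvB. It took 67.3% of all member counts in KO_B6, 63.3% in WT_B6, 59.3% in Tg_FvB and 59.1% in WT_FvB. Per kilobase of the deposited gene length, Pcdhgc3 averaged 135.2 CPM over all 15 libraries. The next gene differed between the groups. It was Pcdhb20 in KO_B6 at 4.99 CPM per kb and in WT_B6 at 8.03, but Pcdhac2 in Tg_FvB at 5.82 and in WT_FvB at 7.22. Pcdhb20 had 4.93 CPM per kb in Tg_FvB and 3.80 in WT_FvB. The ratio of Pcdhgc3 to Pcdhb20 was 26.0 ± 4.54 (SD, n = 15 libraries of all groups). All 22 gamma genes share their constant exons, 2119 bases in all, and all 14 alpha genes share 2860 bases. How reads on these shared exons were counted is not given in the sources used here. In WT_B6 replicate 1 Pcdhgc5 had 38 counts and Pcdhgc3 had 13165, so these reads were not counted once for every gene that holds them. Per kilobase of the first exon alone, Pcdhgc3 had 263.7 CPM in KO_B6, 279.9 in WT_B6, 227.9 in Tg_FvB and 220.3 in WT_FvB, and was again the highest in each group. The next gene was then Pcdhac2 in KO_B6 at 9.30, in Tg_FvB at 12.3 and in WT_FvB at 15.3, but Pcdhb20 in WT_B6 at 8.03. The ratio of Pcdhgc3 to Pcdhac2 per kilobase of first exon was 28.3 ± 14.5 (SD, n = 15 libraries of all groups). On that scale Pcdhgb8 had 0.613 CPM per kb in KO_B6 and 1.19 in WT_B6, but 10.6 in Tg_FvB and 9.09 in WT_FvB. RefSeq ends Pcdhgb8 inside the last constant exon, so its first-exon length, and with it these 4 levels, is approximate. The kit does not mark the strand of the RNA, so antisense transcripts over a first exon cannot be told apart from the gene.

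The alpha variable genes were nearly silent. The 12 of them together summed to 5.32 to 6.53 CPM in KO_B6, against 8.02 to 8.78 CPM in WT_B6, and to 7.20 to 13.7 CPM in Tg_FvB, against 8.43 to 9.16 CPM in WT_FvB. The 2 alpha genes highest per kilobase were Pcdhac2 and Pcdha12, at 4.96 and 0.557 CPM per kb over all libraries. Pcdha1, Pcdha4 and Pcdhb1 had 0 to 5 counts per library and did not pass the filter on low counts, so that 55 of the 58 members were tested. Counts of member calls from the fit of all libraries are over those 55. Some alternative fits tested other numbers, such as 52 in KO_B6 against WT_B6 and 54 in Tg_FvB against WT_FvB with litter as a covariate. Pcdhb1, at 0.0224 CPM per kb, was within the range of the alpha variable genes, whereas the other beta genes had 0.288 to 5.42 CPM per kb.

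Levels followed the order of the genes in the alpha and beta clusters. Over the 12 alpha variable genes, the Spearman correlation of position with level per kilobase was 0.80 in KO_B6, 0.78 in WT_B6, 0.78 in Tg_FvB and 0.66 in WT_FvB. Over the 22 beta genes it was 0.75 in KO_B6, 0.75 in WT_B6, 0.63 in Tg_FvB and 0.41 in WT_FvB. The median beta level was 1.89 CPM per kb for the 11 downstream genes in KO_B6 and 0.654 for the 11 upstream genes, against 3.12 and 1.15 in WT_B6. In WT_FvB these medians were close, at 2.25 downstream and 1.76 upstream. The 19 gamma A and B genes gave -0.31, -0.37, -0.15 and -0.09 in KO_B6, WT_B6, Tg_FvB and WT_FvB, which shows little order along that cluster. These correlations describe genes of the same libraries and are not tests.

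**Figure D1:**
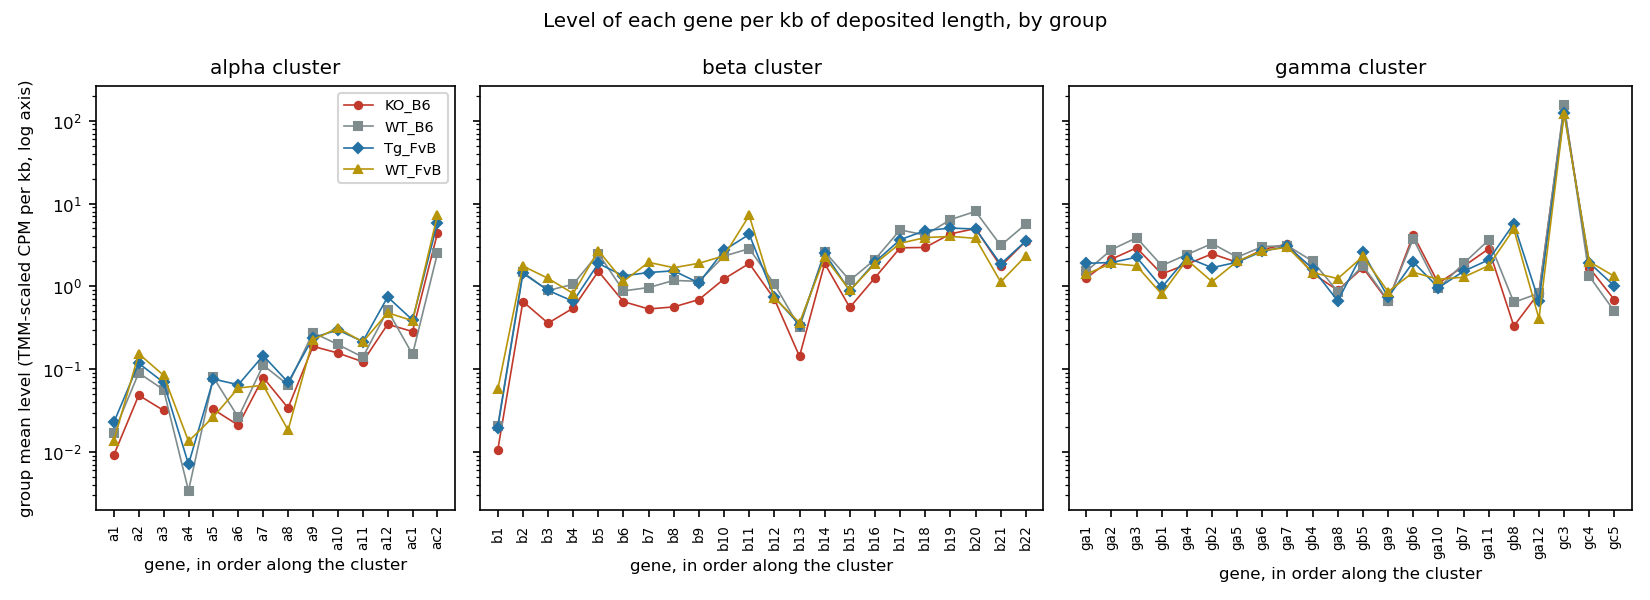
Group mean level of each clustered protocadherin in TMM-scaled CPM per kb of deposited length (log axis), in gene order along the alpha, beta and gamma clusters; a mean of 0 is not drawn. Pcdhgc3 stands at 120.7 to 153.4 CPM per kb in the 4 groups, and most alpha variable genes and Pcdhb1 lie far below the other genes.

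KO_B6 cells held less RNA of nearly the whole beta cluster and more of the 2 alpha C-type genes than WT_B6 cells, and the gamma A and B genes differed less. The 22 beta genes summed to 135.4, 115.7, 116.0 and 122.3 CPM in KO_B6, against 196.4, 194.1 and 199.5 CPM in WT_B6, a ratio of 0.62. The 19 gamma A and B genes summed to 152.5 to 176.6 CPM in KO_B6, against 184.7 to 191.4 CPM in WT_B6, a ratio of 0.87. The 4 C-type genes other than Pcdhgc3 moved the other way and summed to 31.9, 40.5, 40.0 and 35.8 CPM in KO_B6, against 24.2, 22.4 and 23.6 CPM in WT_B6, a ratio of 1.58. In none of these 3 sums did the groups overlap. In litter 843 the KO_B6 to WT_B6 ratio was 0.65 for the beta sum and 1.62 for the C-type sum, and in litter 929 it was 0.60 and 1.61, with 2 KO_B6 libraries and 1 WT_B6 library in each.

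edgeR's quasi-likelihood test called 24 members lower in KO_B6 than in WT_B6 and 2 higher, at a Benjamini-Hochberg adjusted p under 0.05 over all 15261 genes tested. Of all genes tested, 20.9% were called lower and 24.8% higher. KO_B6 and WT_B6 did not overlap in 31 of the 55 members, 19 of them beta genes, and in 8587 of the 15261 genes. Non-overlap, given for single genes below, was therefore common and does not by itself set a gene apart. The median log2 fold change was -0.49 over the 55 members and 0.02 over all genes. In the beta cluster 19 of 21 tested genes were called lower and 0 higher, 20 had an unadjusted p under 0.05, and DESeq2 called 20 lower and 0 higher. All 21 had fold changes below 0, from -1.33 to -0.44 with a median of -0.73. Of the alpha variable genes 1 of 10 was called lower, with a median of -0.53, and these genes rest on few counts. Of the gamma genes 2 of 12 in subfamily A and 2 of 7 in subfamily B were called lower, with medians of -0.16 and -0.33.

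These calls rest on replicates that include the near-identical libraries. With those summed, which left 3 KO_B6, 1 WT_B6, 4 Tg_FvB and 1 WT_FvB libraries, edgeR called 0 members in either direction and 5 of 15958 genes in all. In that fit each wild type was 1 library, so the spread came from KO_B6 and Tg_FvB alone. Without WT_B6 replicate 2 only 1 member was called higher, because Pcdhac1 missed the threshold, and without KO_B6 replicate 1 there were 3. Among the calls, 16 were made under each of the other alternatives that gave them a value, namely Pcdhac2 and 15 beta genes.

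Among the C-type genes, both alpha members were higher in KO_B6. Pcdhac2, needed for the even spacing of serotonergic axons in mice, had 23.1, 25.4, 24.9 and 21.9 CPM in KO_B6, against 14.3, 12.8 and 13.5 in WT_B6 (log2 fold change 0.82 ± 0.21, adjusted p = 0.00485). Every KO_B6 library exceeded every WT_B6 library. Pcdhac1 was far lower and had 1.26, 1.74, 1.36 and 1.70 CPM in KO_B6, against 0.818, 0.652 and 0.934 in WT_B6 (log2 fold change 0.92 ± 0.28, adjusted p = 0.0135). The gamma members did not pass the test. Pcdhgc4, which is needed for the survival of cortical interneurons in mice, had 5.47, 9.60, 9.82 and 8.93 CPM in KO_B6, against 6.98, 6.55 and 6.54 in WT_B6 (log2 fold change 0.34 ± 0.20, adjusted p = 0.178), and KO_B6 replicate 1 lay below all WT_B6 libraries. Pcdhgc5 had 2.04, 3.71, 3.95 and 3.28 CPM in KO_B6, against 2.07, 2.35 and 2.64 in WT_B6 (log2 fold change 0.46 ± 0.40, adjusted p = 0.370), again with KO_B6 replicate 1 below all WT_B6 libraries. For Pcdhgc3 the groups did not overlap but the difference was small (log2 fold change -0.09 ± 0.06, adjusted p = 0.270).

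In the upstream part of the beta cluster the called genes had low levels, and 2 of them had the largest falls of any beta gene on the log2 scale. Pcdhb3 had 1.68, 1.12, 1.55 and 1.10 CPM in KO_B6, against 3.11, 3.03 and 3.99 in WT_B6 (log2 fold change -1.33 ± 0.22, adjusted p = 2.19e-04). Pcdhb2, the first tested gene of the cluster, had 2.15, 1.95, 1.73 and 1.46 CPM in KO_B6, against 3.71, 4.43 and 4.22 in WT_B6 (log2 fold change -1.19 ± 0.18, adjusted p = 1.04e-04). In both genes every KO_B6 library lay below every WT_B6 library. Pcdhb8 had 1.33, 1.53, 1.13 and 1.30 CPM in KO_B6, against 2.40, 2.80 and 3.06 in WT_B6 (log2 fold change -1.06 ± 0.20, adjusted p = 6.09e-04). Pcdhb4 had 3.22, 1.79, 1.68 and 1.44 CPM in KO_B6, against 3.93, 3.98 and 3.96 in WT_B6 (log2 fold change -0.97 ± 0.27, adjusted p = 0.00824). In Pcdhb4 the KO_B6 replicate 1 stood nearest to wild type, as it also did in Pcdhb5. Pcdhb5 had 7.35, 4.84, 5.01 and 4.30 CPM in KO_B6, against 9.43, 8.73 and 8.25 in WT_B6 (log2 fold change -0.71 ± 0.18, adjusted p = 0.00398). Pcdhb7 had 1.75, 2.18, 1.48 and 2.08 CPM in KO_B6, against 3.38, 3.06 and 3.74 in WT_B6 (log2 fold change -0.85 ± 0.21, adjusted p = 0.00375).

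In the middle of the cluster the KO_B6 replicates of Pcdhb10 and Pcdhb11 were spread widely. Pcdhb9 had 2.64, 1.67, 1.90 and 2.26 CPM in KO_B6, against 4.14, 3.23 and 3.19 in WT_B6 (log2 fold change -0.73 ± 0.19, adjusted p = 0.00648). Pcdhb10 had 4.45, 2.87, 2.49 and 4.21 CPM in KO_B6, against 7.04, 6.49 and 6.28 in WT_B6 (log2 fold change -0.91 ± 0.27, adjusted p = 0.0116). Pcdhb11 had 9.87, 7.17, 6.22 and 4.02 CPM in KO_B6, against 9.98, 10.3 and 10.6 in WT_B6 (log2 fold change -0.61 ± 0.22, adjusted p = 0.0375). In Pcdhb11 the highest KO_B6 library was just under the lowest WT_B6 library, and this call was lost when any 1 of the WT_B6 libraries was left out. Pcdhb13 had 0.471, 0.639, 0.370 and 0.640 CPM in KO_B6, against 1.04, 1.56 and 0.934 in WT_B6 (log2 fold change -1.13 ± 0.30, adjusted p = 0.00582). Pcdhb15 had 2.17, 1.08, 1.41 and 1.57 CPM in KO_B6, against 2.78, 3.62 and 3.48 in WT_B6 (log2 fold change -1.10 ± 0.28, adjusted p = 0.00522). In both of these the groups did not overlap. Pcdhb6 and Pcdhb12 were the 2 tested beta genes not called, at log2 fold changes of -0.44 ± 0.32, adjusted p = 0.278 and -0.62 ± 0.24, adjusted p = 0.0511.

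At the downstream end, where beta levels were highest, the median fall was smaller on the log2 scale. Pcdhb16 had 7.75, 6.00, 6.61 and 6.45 CPM in KO_B6, against 10.9, 10.6 and 11.8 in WT_B6 (log2 fold change -0.73 ± 0.12, adjusted p = 1.70e-04). Pcdhb17 had 10.5, 8.67, 8.76 and 10.2 CPM in KO_B6, against 16.7, 14.8 and 15.7 in WT_B6 (log2 fold change -0.72 ± 0.12, adjusted p = 2.00e-04). Pcdhb19, among the highest beta genes, had 19.2, 19.9, 20.8 and 21.1 CPM in KO_B6, against 30.4, 29.2 and 30.9 in WT_B6 (log2 fold change -0.57 ± 0.07, adjusted p = 2.64e-05). All 4 KO_B6 values of each of these genes lay below all 3 WT_B6 values. Pcdhb20, the highest beta gene per kilobase, had 17.1, 16.5, 16.7 and 17.6 CPM in KO_B6, against 27.0, 27.1 and 27.7 in WT_B6 (log2 fold change -0.69 ± 0.11, adjusted p = 1.90e-04). Pcdhb21 had 4.24, 4.33, 5.35 and 5.07 CPM in KO_B6, against 8.45, 8.25 and 8.67 in WT_B6 (log2 fold change -0.83 ± 0.16, adjusted p = 8.82e-04). Pcdhb22, the last gene of the cluster, had 10.2, 10.7, 10.3 and 11.9 CPM in KO_B6, against 17.2, 17.1 and 17.6 in WT_B6 (log2 fold change -0.68 ± 0.14, adjusted p = 0.00137). These genes did not overlap between groups either, and on the CPM scale Pcdhb19 and Pcdhb20 lost more than any of the upstream genes named above.

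Outside the beta cluster, the called falls were few. Pcdha5, an alpha variable gene with under 0.5 CPM in every library but 1, had 0.183, 0.213, 0.173 and 0.112 CPM in KO_B6, against 0.436, 0.359 and 0.451 in WT_B6 (log2 fold change -1.28 ± 0.41, adjusted p = 0.0197). Pcdhgb8 had 1.49, 1.45, 1.36 and 1.82 CPM in KO_B6, against 3.44, 2.93 and 2.55 in WT_B6 (log2 fold change -0.93 ± 0.31, adjusted p = 0.0237), and neither overlapped between groups. The remaining calls were Pcdhga2 (-0.39 ± 0.14, adjusted p = 0.0310), Pcdhga4 (-0.38 ± 0.14, adjusted p = 0.0414) and Pcdhgb4 (-0.49 ± 0.18, adjusted p = 0.0365) on the log2 scale. Pcdhgb4 overlapped between the groups, since KO_B6 replicate 4 reached 8.72 CPM, and these 3 calls were among those lost under several alternatives.

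Over the pooled fit, fold changes in KO_B6 against WT_B6 ran with position in all 3 clusters, and values of single libraries, on another measure, varied. In the alpha cluster the Spearman correlation over 12 tested genes was 0.80, and the median fold change was -0.88 for the 6 upstream and -0.28 for the 6 downstream genes. Without the C-type genes it was 0.66 over 10 genes. In the gamma cluster it was 0.53 over 22 genes, with medians of -0.33 for the 11 upstream and -0.04 for the 11 downstream genes, and 0.35 over 19 genes without the C-type genes. In the beta cluster it was 0.42 over 21 genes, with medians of -0.88 and -0.69. When each KO_B6 library was set against the WT_B6 mean, the beta correlation ran from -0.12 to 0.56. These values per library used log2 of CPM plus 0.1 instead of edgeR's fold changes, which shrinks differences at low levels. They can therefore not be set directly against the pooled correlations. The same range was -0.02 to 0.45 for the alpha and -0.09 to 0.50 for the gamma cluster without their C-type genes, so that the slope was near 0 or below it in some replicates of each. The points share libraries and, in the upstream alpha genes, low counts.

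**Figure D2:**
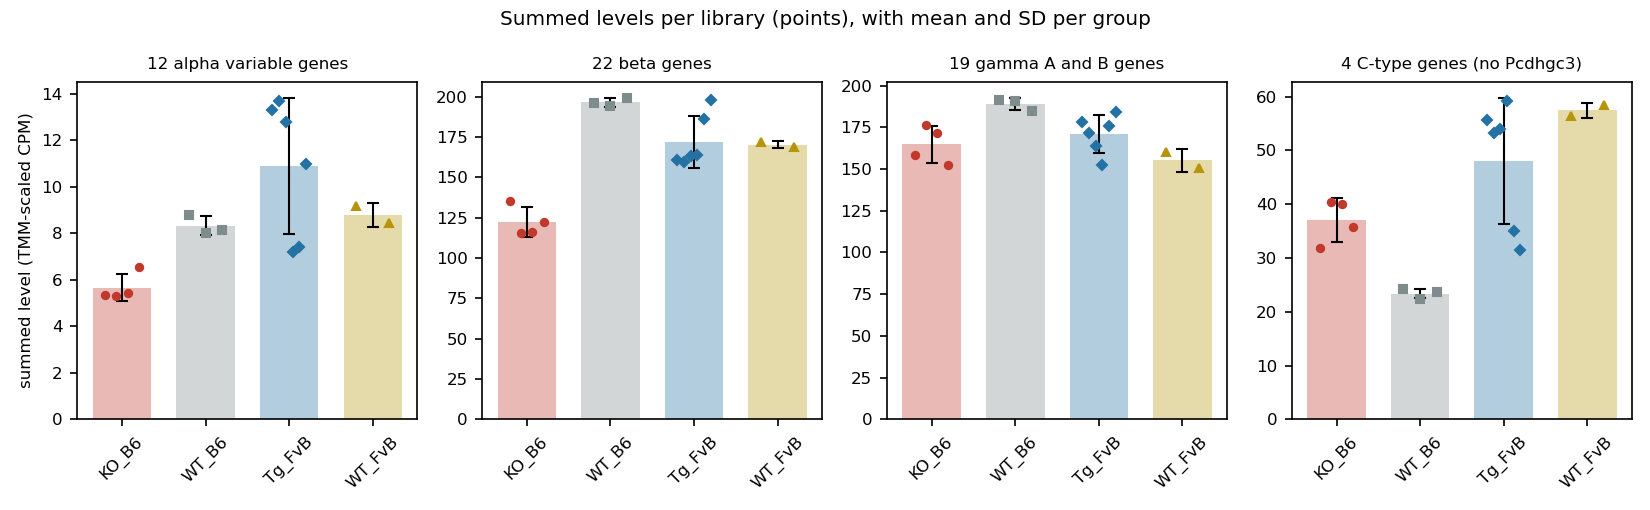
Summed TMM-scaled CPM per library (points) with the group mean (bar, from 0) and SD (whisker) for 4 sets of clustered protocadherins in KO_B6, WT_B6, Tg_FvB and WT_FvB. The beta sums of KO_B6 lie between 115.7 and 135.4, below all WT_B6 sums, and the C-type sums of Tg_FvB replicates 5 and 6 lie at 35.1 and 31.4, below the other FvB libraries.

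With the Kat6b transgene few members passed the test, and the sums of the sets differed from wild type in both directions. The beta genes summed to 159.4 to 198.1 CPM in Tg_FvB, against 168.7 to 171.7 CPM in WT_FvB, a ratio of 1.01, and the gamma A and B genes to 152.6 to 184.4 CPM, against 150.5 to 160.0 CPM, a ratio of 1.10. The ratio was 1.24 for the alpha variable genes, 1.20 for gamma B alone and 0.84 for the C-type genes without Pcdhgc3. Within litter 844 these 3 ratios were 1.53, 1.24 and 0.95, with 2 libraries in each group. edgeR called 1 member higher, where 0.688% of all genes tested were called higher, and 1 member lower, where 1.17% were called lower. The median log2 fold change was 0.08 over the members and 0.01 over all genes. Before adjustment 10 members were higher and 4 lower at a p under 0.05, and DESeq2 called 3 higher and 3 lower. Of all 15261 genes, 2793 had such a p and DESeq2 called 722. Tg_FvB and WT_FvB did not overlap in 13 of the 55 members and in 2439 of all genes tested.

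The member called higher was Pcdhb19, with 21.8 CPM at the lowest, 23.5 at the median and 25.8 at the highest of the 6 Tg_FvB libraries, against 19.3 and 18.5 in WT_FvB (log2 fold change 0.33 ± 0.08, adjusted p = 0.0423). All Tg_FvB libraries exceeded both WT_FvB libraries. The member called lower was Pcdhga8, with 2.37 CPM at the lowest, 3.00 at the median and 4.06 at the highest of the 6 Tg_FvB libraries, against 6.20 and 5.51 in WT_FvB (log2 fold change -0.88 ± 0.18, adjusted p = 0.0309), and here every Tg_FvB library lay below both WT_FvB libraries. Both calls were lost with litter as a covariate, which leaves litter 844 to compare the groups, and edgeR then called 0 members, with 12 at an unadjusted p under 0.05. Of all 14552 genes in that fit, 0 were called and 1511 had such a p. Both were also lost when the fit held the 2 groups alone and when the near-identical libraries were summed. Without Tg_FvB replicates 5 and 6, 2 members were called higher and 4 lower, where 638 of 15215 genes were called. Without Tg_FvB replicate 4, 6 were called higher and 2 lower, and without replicate 5, 2 and 2. Counts over all genes are not given here for the fits that leave out 1 library, so these member counts have no share beside them. Leaving out WT_FvB replicate 1 or 2 or Tg_FvB replicate 1 or 3 removed both calls, and leaving out Tg_FvB replicate 2 or 6 removed Pcdhb19.

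Along the beta cluster the transgenic fold changes ran with position. The Spearman correlation over 21 genes was 0.76, with a median of -0.36 for the 10 upstream genes and 0.15 for the 11 downstream genes. Set against the WT_FvB mean one library at a time, on log2 of CPM plus 0.1, it ran from 0.28 to 0.81 over the 6 Tg_FvB libraries. All 6 values share that mean of 2 near-identical WT_FvB libraries and are not independent. The same WT_FvB libraries enter the comparison of wild types below with the opposite sign, so the 2 beta patterns are linked through them. The genes at the upstream end, Pcdhb2, Pcdhb3 and Pcdhb4, had log2 fold changes of -0.29 ± 0.19, adjusted p = 0.421, -0.46 ± 0.22, adjusted p = 0.292 and -0.30 ± 0.30, adjusted p = 0.619, none of them called. Further along, Pcdhb9 had 2.77 CPM at the lowest, 3.27 at the median and 4.42 at the highest of the 6 Tg_FvB libraries, against 5.61 and 5.97 in WT_FvB (log2 fold change -0.78 ± 0.20, adjusted p = 0.0614), and at the downstream end Pcdhb21 had 4.01 CPM at the lowest, 4.96 at the median and 6.88 at the highest of the 6 Tg_FvB libraries, against 3.55 and 2.60 in WT_FvB (log2 fold change 0.72 ± 0.20, adjusted p = 0.0789). Neither Pcdhb9 nor Pcdhb21 passed the threshold. In the alpha and gamma clusters the correlations were -0.06 and -0.25. The low alpha variable genes Pcdha5, Pcdha7 and Pcdha8 had log2 fold changes of 1.50 ± 0.57, adjusted p = 0.181, 1.21 ± 0.39, adjusted p = 0.121 and 1.86 ± 0.68, adjusted p = 0.167, each resting on WT_FvB values under 0.4 CPM.

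None of the 5 C-type genes was called in the transgenic comparison by edgeR or DESeq2, and 0 had an unadjusted p under 0.05. Pcdhac2 had 20.1 CPM at the lowest, 36.0 at the median and 39.5 at the highest of the 6 Tg_FvB libraries, against 38.3 and 40.0 in WT_FvB (log2 fold change -0.32 ± 0.21, adjusted p = 0.431), but Tg_FvB replicates 5 and 6 had 20.1 and 20.9 CPM whereas the other 4 had 35.3 to 39.5 CPM. Pcdhgc4 had 7.17 CPM at the lowest, 10.7 at the median and 11.2 at the highest of the 6 Tg_FvB libraries, against 10.2 and 9.80 in WT_FvB (log2 fold change -0.05 ± 0.21, adjusted p = 0.929). Pcdhgc5 had 1.31 CPM at the lowest, 4.73 at the median and 6.89 at the highest of the 6 Tg_FvB libraries, against 5.91 and 6.56 in WT_FvB (log2 fold change -0.43 ± 0.40, adjusted p = 0.591), and its lowest value came from replicate 6. All 3 of these genes overlapped between groups. Pcdhac1 had 1.21 CPM at the lowest, 2.05 at the median and 2.86 at the highest of the 6 Tg_FvB libraries, against 2.07 and 2.01 in WT_FvB (log2 fold change 0.04 ± 0.28, adjusted p = 0.959). For Pcdhgc3 the fold change was 0.05 ± 0.07, adjusted p = 0.718.

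Between the 2 wild types the clusters differed in composition more than in total. The beta genes summed to 171.7 and 168.7 CPM in WT_FvB, against 196.4, 194.1 and 199.5 CPM in WT_B6, and the gamma A and B genes to 160.0 and 150.5 CPM, against 191.4, 191.1 and 184.7 CPM. edgeR called 7 members higher in WT_FvB than in WT_B6, where 25.4% of all genes tested were called higher, and 14 lower, where 23.5% were called lower. The median was -0.11 over the members and 0.02 over all genes. The wild types did not overlap in 38 of the 55 members and in 11954 of the 15261 genes, so non-overlap does not set members apart here. DESeq2 called 9 members higher and 14 lower, and 7554 of the 15261 genes in all. With the near-identical libraries summed, each wild type is 1 library and no member kept its call. A fit of the 2 wild types alone called 16 members higher and 18 lower, and its count over all genes is not given here. The fit without Tg_FvB replicates 5 and 6 called 11 members higher and 14 lower, and 8350 of 15215 genes in all. Apart from the summed libraries, 14 of the 21 calls were made under every alternative run. Reads of both backgrounds were counted against build mm10, and any loss of reads to strain differences in sequence was not tested. These libraries also differed in cell-type markers. WT_B6 serves both here and in the knockout comparison, and WT_FvB both here and in the transgenic one.

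Pcdhgb8 differed by far the most. RefSeq annotates this gene of assembly GRCm38 (identifier 93705, chromosome 18, 37761801 to 37840489) as a transcribed pseudogene. It had 22.5 and 23.0 CPM in WT_FvB, against 3.44, 2.93 and 2.55 in WT_B6 (log2 fold change 2.95 ± 0.33, adjusted p = 3.35e-05), a 7.64-fold difference with no overlap. The Tg_FvB libraries resembled WT_FvB, with 26.4 to 34.4 CPM, except replicate 5 at 11.1 CPM, and the 4 KO_B6 libraries had 1.36 to 1.82 CPM. Without Pcdhgb8 the remaining 6 gamma B genes summed to 39.2 and 38.1 CPM in WT_FvB, against 67.0, 67.1 and 65.0 CPM in WT_B6, a ratio of 0.58.

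Of the C-type genes 3 were called higher in WT_FvB and Pcdhgc3 was called lower. Pcdhac2 had 38.3 and 40.0 CPM in WT_FvB, against 14.3, 12.8 and 13.5 in WT_B6 (log2 fold change 1.53 ± 0.24, adjusted p = 2.21e-04). Pcdhac1 had 2.07 and 2.01 CPM in WT_FvB, against 0.818, 0.652 and 0.934 in WT_B6 (log2 fold change 1.34 ± 0.33, adjusted p = 0.00382). Pcdhgc5 had 5.91 and 6.56 CPM in WT_FvB, against 2.07, 2.35 and 2.64 in WT_B6 (log2 fold change 1.40 ± 0.46, adjusted p = 0.0216), and Pcdhgc4 had 10.2 and 9.80 CPM in WT_FvB, against 6.98, 6.55 and 6.54 in WT_B6 (log2 fold change 0.58 ± 0.24, adjusted p = 0.0568), which missed the threshold. In these 4 genes the values of the 2 WT_FvB libraries lay above those of WT_B6. Pcdhgc3 had 576.9 and 554.4 CPM in WT_FvB, against 718.0, 714.6 and 723.9 in WT_B6 (log2 fold change -0.35 ± 0.07, adjusted p = 0.00161). The 4 C-type genes other than Pcdhgc3 summed to 56.5 and 58.4 CPM in WT_FvB, against 24.2, 22.4 and 23.6 CPM in WT_B6, a ratio of 2.46.

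In the beta cluster the difference between wild types changed sign along the array. The Spearman correlation of position with fold change was -0.72 over 21 genes, with a median of 0.42 for the 10 upstream and -0.54 for the 11 downstream genes. The 3 genes called higher all lay among the first 11. Pcdhb7 had 6.30 and 7.38 CPM in WT_FvB, against 3.38, 3.06 and 3.74 in WT_B6 (log2 fold change 1.01 ± 0.24, adjusted p = 0.00304). Pcdhb9 had 5.61 and 5.97 CPM in WT_FvB, against 4.14, 3.23 and 3.19 in WT_B6 (log2 fold change 0.73 ± 0.23, adjusted p = 0.0155). Pcdhb11 had 27.1 and 24.7 CPM in WT_FvB, against 9.98, 10.3 and 10.6 in WT_B6 (log2 fold change 1.33 ± 0.26, adjusted p = 9.30e-04), and its Tg_FvB libraries, at 13.1 to 20.9 CPM, lay between the 2 wild types. The 5 genes called lower were the downstream Pcdhb17, Pcdhb19, Pcdhb20, Pcdhb21 and Pcdhb22. Pcdhb20 had 13.0 and 12.9 CPM in WT_FvB, against 27.0, 27.1 and 27.7 in WT_B6 (log2 fold change -1.08 ± 0.14, adjusted p = 7.85e-05). Pcdhb21 had 3.55 and 2.60 CPM in WT_FvB, against 8.45, 8.25 and 8.67 in WT_B6 (log2 fold change -1.46 ± 0.22, adjusted p = 1.67e-04). Pcdhb22 had 7.19 and 7.11 CPM in WT_FvB, against 17.2, 17.1 and 17.6 in WT_B6 (log2 fold change -1.28 ± 0.19, adjusted p = 1.47e-04). In each of these 3 the WT_FvB values lay below all WT_B6 and all KO_B6 values. Pcdhb19 had 19.3 and 18.5 CPM in WT_FvB, against 30.4, 29.2 and 30.9 in WT_B6 (log2 fold change -0.67 ± 0.09, adjusted p = 6.73e-05), and Pcdhb17 had 11.9 and 9.75 CPM in WT_FvB, against 16.7, 14.8 and 15.7 in WT_B6 (log2 fold change -0.54 ± 0.14, adjusted p = 0.00698).

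The gamma genes called lower in WT_FvB came from both subfamilies and from both ends of the cluster. Pcdhgb2 had 5.56 and 4.97 CPM in WT_FvB, against 15.5, 15.4 and 14.7 in WT_B6 (log2 fold change -1.53 ± 0.33, adjusted p = 0.00187). Pcdhgb6 had 6.79 and 7.06 CPM in WT_FvB, against 18.7, 17.2 and 16.8 in WT_B6 (log2 fold change -1.34 ± 0.25, adjusted p = 6.90e-04). Pcdhgb1 had 4.09 and 3.14 CPM in WT_FvB, against 8.23, 8.08 and 7.67 in WT_B6 (log2 fold change -1.15 ± 0.25, adjusted p = 0.00188). No WT_FvB value of these genes came near a WT_B6 value. Pcdhga3 had 9.31 and 7.34 CPM in WT_FvB, against 19.8, 16.8 and 17.8 in WT_B6 (log2 fold change -1.12 ± 0.21, adjusted p = 6.59e-04). In all 4 genes every KO_B6 library lay above both WT_FvB libraries. Pcdhga11 had 7.88 and 8.89 CPM in WT_FvB, against 15.7, 18.8 and 16.7 in WT_B6 (log2 fold change -1.03 ± 0.27, adjusted p = 0.00616). Pcdhga12 had 2.46 and 1.69 CPM in WT_FvB, against 4.85, 3.62 and 4.09 in WT_B6 (log2 fold change -1.01 ± 0.24, adjusted p = 0.00287). Pcdhga2 had 8.96 and 8.20 CPM in WT_FvB, against 12.8, 13.3 and 11.8 in WT_B6 (log2 fold change -0.56 ± 0.17, adjusted p = 0.0145), and Pcdhgb7 had 5.66 and 6.06 CPM in WT_FvB, against 7.91, 8.44 and 9.38 in WT_B6 (log2 fold change -0.55 ± 0.21, adjusted p = 0.0420). Neighbours such as Pcdhga6 and Pcdhga7 lay near 0, at -0.16 ± 0.16, adjusted p = 0.429 and -0.06 ± 0.16, adjusted p = 0.771.

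**Figure D3:**
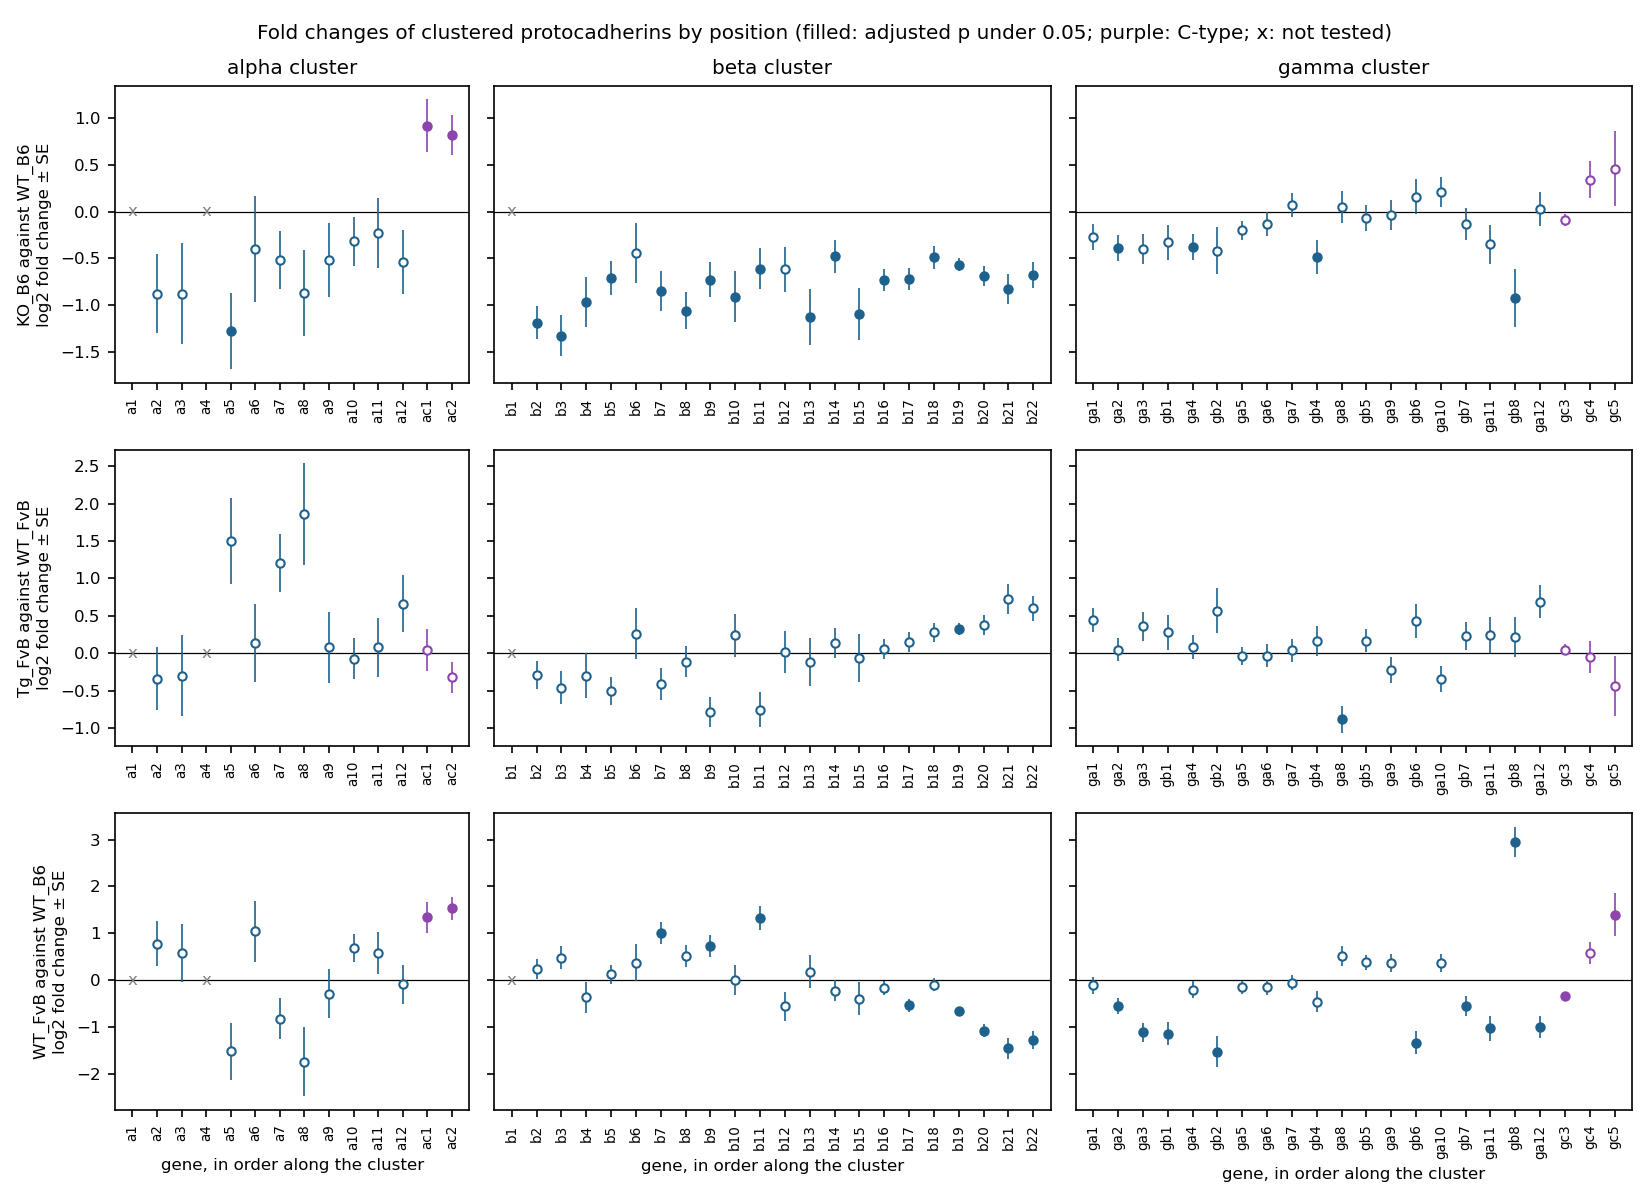
Log2 fold change with its SE for every tested clustered protocadherin, in gene order along each cluster (columns), for KO_B6 against WT_B6, Tg_FvB against WT_FvB and WT_FvB against WT_B6 (rows, each with its own scale). Filled points passed an adjusted p under 0.05, C-type genes are purple, and an x marks Pcdha1, Pcdha4 and Pcdhb1, which were not tested. In the top row all 21 beta points lie below 0, and in the bottom row the beta points pass below 0 towards the right.

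Among the Tg_FvB libraries, replicate 5 lay nearest to WT_B6 for these genes and replicate 6 came next. Of the 21 members called between the wild types, 19 were nearer to the WT_B6 than to the WT_FvB mean on the log2 scale in Tg_FvB replicate 5, and 9 in replicate 6. In Tg_FvB replicates 1 to 4 this number was 3 to 6, and in replicate 6 the other 12 were nearer to WT_FvB. The 21 members were called on the same wild-type libraries, a choice that by itself can draw other libraries towards the middle. In replicate 5 Pcdhgb8, Pcdhac2, Pcdhb22 and Pcdhgb2 were at 11.1, 20.1, 15.3 and 11.7 CPM. The counts nearer to WT_B6 in the KO_B6 libraries were 12 to 13 of 21.

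The 2 Kat6b effects differed from each other in part of the family. For KO_B6 against WT_B6 minus Tg_FvB against WT_FvB, edgeR called 2 members higher, where 19.5% of all genes tested were called higher, and 17 lower, where 17.8% were called lower. The median difference was -0.61 over the members and 0.01 over all genes. Of the 17 lower, 11 were beta genes, 3 alpha variable genes and 3 gamma genes. The largest beta differences were Pcdhb21 (-1.56 ± 0.26, adjusted p = 6.57e-04), Pcdhb22 (-1.28 ± 0.22, adjusted p = 7.57e-04) and Pcdhb10 (-1.15 ± 0.40, adjusted p = 0.0335), and Pcdhb19 had -0.91 ± 0.10, adjusted p = 1.12e-04. Pcdhac2 (1.14 ± 0.29, adjusted p = 0.00760) and Pcdhga8 (0.92 ± 0.25, adjusted p = 0.0113) were called higher. The Pcdhga8 difference came with KO_B6 values of 4.14 to 4.39 CPM, against 3.76 to 4.73 CPM in WT_B6, beside the lower values in Tg_FvB. Without WT_FvB replicate 2 only 9 were called lower, and without WT_FvB replicate 1 there were 11 lower and 1 higher. Without KO_B6 replicate 4 or Tg_FvB replicate 2 there were 3 higher. With the near-identical libraries summed, no member kept its call. Genotype and background change together between these 2 comparisons and cannot be told apart.

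**Figure D4:**
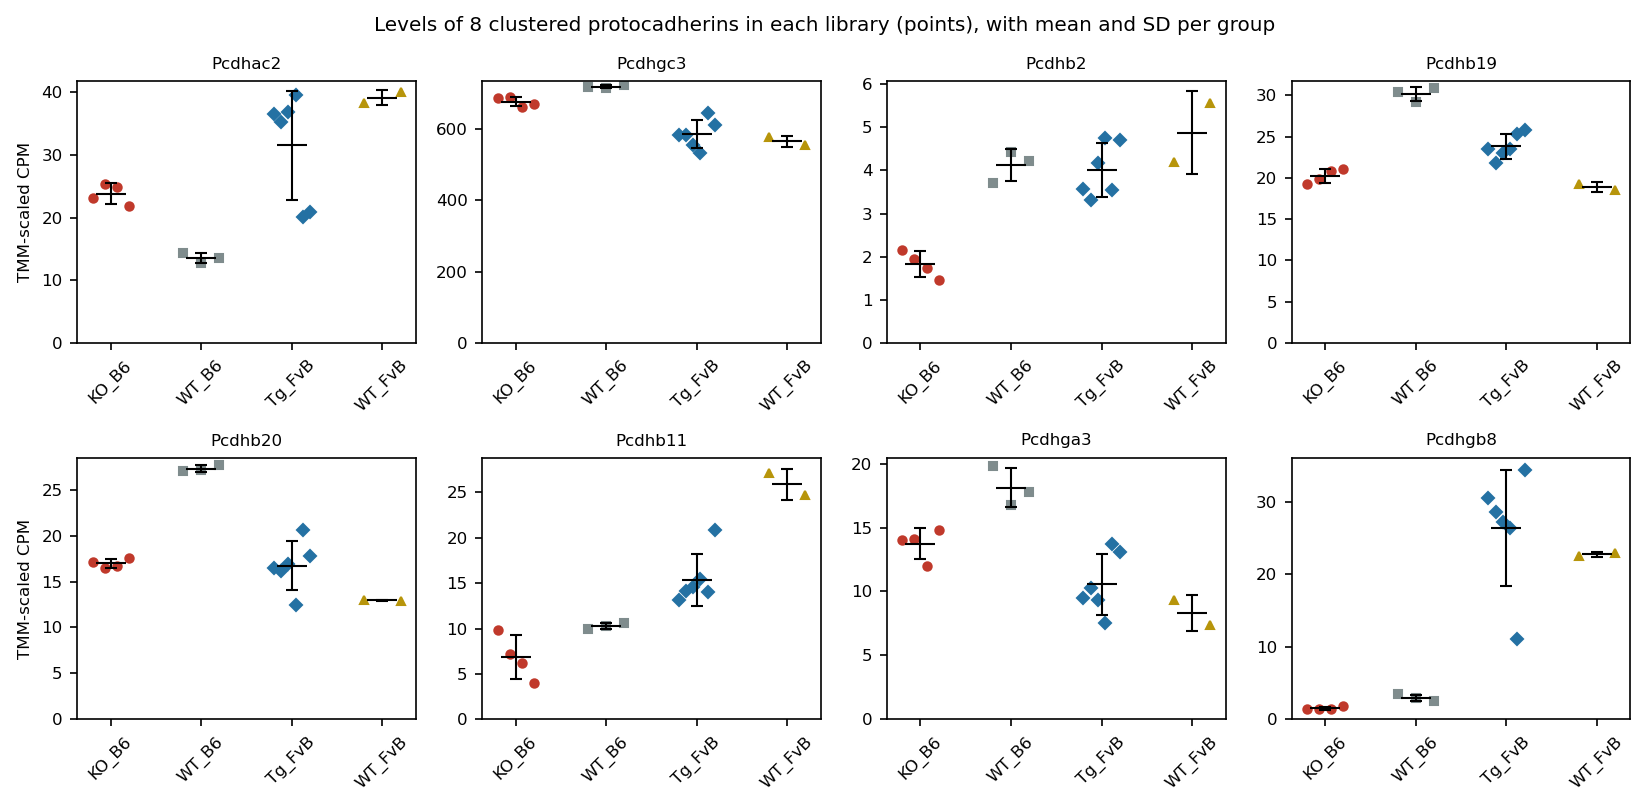
TMM-scaled CPM of 8 clustered protocadherins in each library (points, axis from 0), with mean and SD per group, for KO_B6, WT_B6, Tg_FvB and WT_FvB. Pcdhb2, Pcdhb19 and Pcdhb20 are lower in KO_B6 than in WT_B6 and Pcdhac2 is higher, and Pcdhgb8 is at 1.36 to 3.44 CPM in all B6 libraries but at 11.1 to 34.4 CPM in all FvB libraries.

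Markers of cell state differed as well, and in KO_B6 the neuron, progenitor and oligodendrocyte lineage lists held calls in both directions. Of the neuron list Tubb3 and Dcx were among the 3 genes lower in KO_B6, while Nefl and Snap25 were higher. Tubb3, a neuronal tubulin, had 9.58, 8.07, 7.57 and 9.93 CPM in KO_B6, against 26.3, 25.0 and 24.1 in WT_B6 (log2 fold change -1.51 ± 0.22, adjusted p = 1.08e-04). Dcx, a microtubule-associated protein of migrating neurons, had 15.1, 10.2, 10.6 and 19.8 CPM in KO_B6, against 36.9, 38.4 and 40.3 in WT_B6 (log2 fold change -1.47 ± 0.27, adjusted p = 5.43e-04). Nefl, a neurofilament subunit, had 0.262, 0.550, 0.567 and 0.448 CPM in KO_B6, against 0.0545, 0.0652 and 0.0322 in WT_B6 (log2 fold change 3.11 ± 0.78, adjusted p = 0.00449), and Snap25, a protein of synaptic vesicle release, had 5.73, 5.07, 6.59 and 4.46 CPM in KO_B6, against 2.78, 2.74 and 2.58 in WT_B6 (log2 fold change 1.02 ± 0.18, adjusted p = 3.81e-04). The Nefl fold change rests on very few counts in WT_B6. In WT_FvB Tubb3 had 5.37 and 5.83 CPM and Dcx 11.9 and 11.9 CPM, both called lower than in WT_B6. Snap25 was called higher there (log2 fold change 1.18 ± 0.21, adjusted p = 4.89e-04), the 1 higher call beside 6 lower among the neuron markers. Over the whole neuron list 2 of 10 genes were higher and 3 lower in KO_B6. Of all genes tested, 24.8% were called higher and 20.9% lower in that comparison. The neuron list summed to 1272 to 1370 CPM in KO_B6, against 1328 to 1339 CPM in WT_B6. Of 8 astrocyte markers 5 were lower and 0 higher by edgeR and by DESeq2, 5 were lower and 1 higher at an unadjusted p under 0.05, and the list summed to 901.0 to 988.0 CPM in KO_B6, against 1245 to 1248 CPM in WT_B6. In WT_FvB the astrocyte list summed to 2113 to 2127 CPM, and in Tg_FvB to 1296 to 1612 CPM. Against WT_B6, 6 astrocyte markers were called higher and 0 lower in WT_FvB. Against WT_FvB, 4 were called lower and 0 higher in Tg_FvB, with 1 neuron and 2 oligodendrocyte lineage markers higher. In that comparison 0.688% of all genes tested were called higher and 1.17% lower, and no gene was called with litter as a covariate. Of 10 neural stem and progenitor markers 2 were higher and 5 lower in KO_B6. The 2 higher were Nes (log2 fold change 0.43 ± 0.07, adjusted p = 1.82e-04) and Hes1 (0.65 ± 0.13, adjusted p = 9.08e-04). Msi1, an RNA-binding protein of neural progenitors, was among those lower, with 51.8, 43.4, 39.3 and 44.6 CPM in KO_B6, against 94.9, 83.8 and 86.3 in WT_B6 (log2 fold change -0.98 ± 0.10, adjusted p = 7.77e-06). The neuron and progenitor genes named here were picked after their values were seen. Of the oligodendrocyte lineage markers 1 of 9 was higher and 3 were lower in KO_B6. The part of these shifts in the protocadherin results was not tested.

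Genes that act on the clusters, or with their products, were counted from lists. CTCF and cohesin bind the promoters and fold the clusters. Of 12 such genes 5 were higher and 0 lower in KO_B6 by edgeR, 5 were higher before adjustment and DESeq2 called 4 higher and 0 lower. The largest were Cdca5 (0.39 ± 0.08, adjusted p = 0.00158), which protects cohesin on chromatin, Pds5b (0.34 ± 0.08, adjusted p = 0.00394), Pds5a (0.28 ± 0.09, adjusted p = 0.0203) and Smc1a (0.25 ± 0.06, adjusted p = 0.00497). Ctcf itself had a log2 fold change of 0.07 ± 0.06, adjusted p = 0.405. Of 16 genes that silence or demethylate chromatin 4 were higher and 4 lower, shares near those over all genes of 24.8% higher and 20.9% lower, so that the counts set this list apart in neither direction. Uhrf1, which guides maintenance DNA methylation, had 251.3, 286.0, 281.0 and 246.4 CPM in KO_B6, against 149.3, 150.1 and 156.6 in WT_B6 (log2 fold change 0.81 ± 0.10, adjusted p = 2.78e-05). Tet2, a methylcytosine oxidase, was lower (-0.58 ± 0.15, adjusted p = 0.00543), and the maintenance methyltransferase gene Dnmt1 (0.56 ± 0.10, adjusted p = 3.32e-04) and the histone methyltransferase gene Setdb1 (0.39 ± 0.06, adjusted p = 2.00e-04) were higher. Smchd1, which silences protocadherin clusters in mice, had 0.21 ± 0.09, adjusted p = 0.0811. Ctcf and Smchd1 were picked after their values were seen.

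Among 18 tested genes for protein processing and signalling 1 was higher and 5 lower in KO_B6. Over all genes tested, 24.8% were called higher and 20.9% lower in KO_B6. The largest were Marcks (-0.78 ± 0.14, adjusted p = 4.51e-04), Psen2 (-0.65 ± 0.14, adjusted p = 0.00142), a catalytic subunit of the gamma-secretase that cleaves protocadherins, Wasf1 (-0.47 ± 0.12, adjusted p = 0.00664) and the focal adhesion kinase gene Ptk2 (0.31 ± 0.06, adjusted p = 4.59e-04). Marcks encodes an actin-regulating substrate of protein kinase C. Among 11 tested non-clustered protocadherins, which lie elsewhere in the genome, 1 was higher and 3 lower, with a median of -0.28. Pcdh8 (-0.76 ± 0.27, adjusted p = 0.0310), Pcdh10 (-0.51 ± 0.07, adjusted p = 7.35e-05) and Pcdh9 (-0.49 ± 0.15, adjusted p = 0.0134) were the lower ones and Pcdh7 (0.25 ± 0.06, adjusted p = 0.00476) the higher one. In Tg_FvB against WT_FvB edgeR called 0 genes of any of these 4 lists or of the neighbours below. Before adjustment 0 to 2 genes of each list had a p under 0.05, and DESeq2 called 1 gene higher in the silencing list, 1 among the non-clustered protocadherins, 1 among the neighbours and 0 lower in any.

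The genes next to the clusters differed in direction among themselves. Of 14 tested genes that flank or lie between the clusters, 3 were higher and 2 lower in KO_B6, with a median of -0.04. The shares over all genes tested were 24.8% higher and 20.9% lower. Zmat2, upstream of the alpha cluster, had 106.6, 92.7, 90.9 and 93.4 CPM in KO_B6, against 136.4, 126.1 and 126.6 in WT_B6 (log2 fold change -0.44 ± 0.10, adjusted p = 0.00246), while Wdr55 (0.54 ± 0.12, adjusted p = 0.00194) and Dnd1 (0.46 ± 0.18, adjusted p = 0.0471) on the same side were higher. Taf7, a general transcription factor gene between the beta and gamma clusters, had 27.4, 20.9, 21.8 and 18.9 CPM in KO_B6, against 27.5, 28.3 and 28.2 in WT_B6 (log2 fold change -0.33 ± 0.27, adjusted p = 0.336), which missed the threshold. Diaph1, downstream of the gamma cluster, was higher (0.28 ± 0.09, adjusted p = 0.0159). In WT_FvB against WT_B6, 1 of these 14 was higher and 5 lower, where 25.4% of all genes tested were called higher and 23.5% lower. Taf7 was among the lower ones, with 13.6 and 13.9 CPM in WT_FvB, against 27.5, 28.3 and 28.2 in WT_B6 (log2 fold change -1.03 ± 0.35, adjusted p = 0.0229).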

How the data were processed

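The 15 files hold raw counts per gene as deposited, with a gene length in bases. Per the submitters' processing notes, bcl2fastq, featureCounts and build mm10 were used, from 66 bp paired reads per the labels. No source used here gives the aligner, tool versions, annotation, strand setting or the treatment of reads on shared exons. Entries without a gene name held 0.450% to 0.545% of counts per library and were left out. Groups follow the labelled genotype and strain background. Each library has its own litter and embryo number within its group, but many are near-identical, so p-values measure only the spread between these samples, which may be technical.

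One edgeR 4.0.16 quasi-likelihood model (R 4.3.3) was fitted on the counts of all 15 libraries, with 1 coefficient per group, TMM scaling and filterByExpr at a minimum count of 10, leaving 15261 genes. Calls had a Benjamini-Hochberg adjusted p under 0.05 over those genes. Values after ± beside a log2 fold change are standard errors, and adjusted p-values are edgeR's. Library totals ran from 12336303 to 62819028, which sets the counting error. The test was tried on simulated independent libraries that all had the same spread. None of those were near-identical, so the trial cannot show how such libraries affect the calls here. DESeq2 1.42.0 and other settings served as alternatives.

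Gene order and coordinates came from RefSeq, and the constant exons shared by every gene of a cluster from GENCODE annotation of GRCm38. A first-exon length is the deposited gene length less the constant exons of its cluster, not a length read from annotation. Sums, position and level order have no test. The members and gene lists were chosen with earlier results of these data known. Values in full were given for up to 20 called members per comparison by size of fold change, the C-type genes and the 2 highest members per cluster, and for up to 4 called genes of each other list. No pairing by replicate number was used.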

Additional observations from a re-analysis of the deposited data

Results flagged for a closer look

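In 16 of 118 group values examined, the highest or lowest library lay apart from its group. The gap used would arise in about 1 of 20 groups of independent libraries. Both KO_B6 and Tg_FvB hold near-identical libraries, and values of the same library are not independent. The number of flags can therefore not be read against that rate. Tg_FvB replicate 6 stood apart at 4.88 CPM for Pcdhb3, 13.4 for Pcdhb10, 20.9 for Pcdhb11, 29.9 for Pcdhb18, 7.14 for Pcdhga4, 10.8 for Pcdhga7 and 3.25 for Pcdhga10. Tg_FvB replicate 5 stood apart at 15.3 CPM for Pcdhb22, 6.80 for Pcdhgb1 and 11.1 for Pcdhgb8. KO_B6 replicate 4 stood apart at 2.19 CPM for Pcdha9, 8.72 for Pcdhgb4, 13.5 for Pcdhgb6 and 6.53 for the summed alpha variable genes. KO_B6 replicate 1 stood apart at 8.51 CPM for Pcdhb14 and 6.86 for Pcdhga4.

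The KO_B6 effect minus the Tg_FvB effect, on the log2 scale, passed edgeR's test of the difference in 19 members. It was -2.78 for Pcdha5, -1.73 for Pcdha7 and -2.73 for Pcdha8, which have low counts, and 1.14 for Pcdhac2. Among the beta genes it was -0.90 for Pcdhb2, -0.87 for Pcdhb3, -0.95 for Pcdhb8, -1.15 for Pcdhb10, -0.80 for Pcdhb16, -0.87 for Pcdhb17, -0.78 for Pcdhb18, -0.91 for Pcdhb19, -1.07 for Pcdhb20, -1.56 for Pcdhb21 and -1.28 for Pcdhb22. Among the gamma genes it was -0.71 for Pcdhga1, -0.76 for Pcdhga3, 0.92 for Pcdhga8 and -1.15 for Pcdhgb8.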

How the results depend on the processing

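With the near-identical libraries summed, 0 members were called in either direction in any of the 4 comparisons, a setting with fewer samples. The transgenic comparison depended most on the setting. It gave 0 higher without a filter on low counts, 0 higher and 0 lower with only the groups compared or with litter as a covariate, 2 higher and 4 lower without Tg_FvB replicates 5 and 6, and 3 higher and 3 lower by DESeq2. The replicate block gave 16 higher and 10 lower there and 1 higher for the KO_B6 effect minus the Tg_FvB effect, and in KO_B6 against WT_B6 it gave 2 higher and 24 lower. In the transgenic comparison that block called 6460 of 14552 genes, so its many calls there were not particular to the members. Same-numbered libraries did not deviate together, with correlations of -0.0237 to 0.0809, so the numbers do not pair them. Between wild types, 16 members were higher with only the groups compared and 11 without Tg_FvB replicates 5 and 6, where 8350 of 15215 genes were called. Leaving out 1 library gave 1 to 3 higher in KO_B6 against WT_B6, 0 to 6 higher and 0 to 2 lower in Tg_FvB against WT_FvB, and 1 to 3 higher and 9 to 20 lower for the difference of effects. Without Pcdhgc3, an alternative also chosen after seeing the data, the log2 ratio of all members was -0.34 in KO_B6 against WT_B6 and -0.09 between wild types. Over the 10 tested alpha genes without the C-type genes, the correlation of position with fold change was 0.66 for the knockout, 0.22 for the transgene and -0.12 between wild types. At a minimum count of 30 only 6 alpha genes remained, the C-type genes among them, and it was 0.60, -0.43 and 0.77. These are different gene sets. In the gamma cluster without the C-type genes it was -0.02 for the transgene and 0.23 between wild types. The cause was not tested. No direction reversed among called values. WT_FvB has 2 libraries and the alpha variable genes have few counts, which limits both.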
